A study of Mus musculus with 12 samples.

Results

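The genes described here drive and mark the cell division cycle. A list of 48 gene symbols covering DNA replication, mitosis, the G1 cyclins and kinases, the transcription factors of the cycle and CDK inhibitors was matched by symbol to the raw read counts of mouse prostate tumours. All 48 were found among the 23479 symbols counted, and 47 of them had enough counts to be tested, among 15082 genes tested in all. The tumours grew in the prostate of C57BL/6J mice after injection of 100000 cells of 1 prostate cancer line, PTE-82, in a 40 µl mix of PBS with Matrigel. The labels describe the tumour cells as expressing TMPRSS2-ERG, a fusion common in prostate cancer. Bulk RNA was sequenced from 12 tumours, 3 in each of 4 groups. The IgG group was the control, the anti-CSF1 group received antibody against CSF1, the growth factor of macrophages, on days 9 and 14, and the Lupron group received 0.6 mg of Lupron on day 4. The fourth group, called the combination here, received both. Lupron (leuprolide) acts on the pituitary and lowers testosterone. All tumours were taken on day 17, after perfusion. The labels do not say how old the mice were, or whether control IgG was also given with Lupron.

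A dividing cell passes from G1 into S phase when cyclin D with CDK4 and cyclin E with CDK2 inactivate the RB protein and free E2F factors, which switch on genes of DNA replication. A later wave of transcription, driven by MYBL2 and FOXM1 together with the MuvB complex, raises the genes of G2 and mitosis. In prostate cancer the androgen receptor feeds into the first of these steps. Because the RNA came from whole tumours, fewer dividing cells and less of these transcripts per cell cannot be told apart.

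Promoters of the 2 groups of genes differ in the motifs they are known for. The motifs searched, on both strands, were those of the CHR element of MuvB-bound genes (TTTGAA or TTCGAA), the E2F site (TTTCCCGC, TTTGGCGC or TTTCGCGC) and the CCAAT box, in RefSeq promoters of build GRCm38.p6 from 250 bases before to 50 bases after the start. Each match was counted, also where matches overlapped, as facing E2F matches in Mcm5 and Mcm6 do. A promoter was found for 38 of the 48 genes. CHR letters were in 16 of 20 mitosis promoters (80.0%) and 3 of 12 S phase promoters (25.0%), against 19.2% of all 32851 promoters. E2F letters were in 5 of 12 S phase promoters (41.7%) and 1 of 20 mitosis promoters (5.0%), against 1.84% of all. The CCAAT box was in 90.0% of the mitosis and 83.3% of the S phase promoters, against 37.4% of all. A match is only a match of letters. The Top2a, Cdk1, Mcm5 and Mcm6 promoters below come from the 2 gene groups whose levels are compared throughout, but are not typical of them. Top2a held the most CHR matches of the promoters found. Cdk1 is the 1 mitosis promoter with E2F letters, and Mcm5 and Mcm6 are among the 5 S phase promoters with them. Matches to any of the 3 motifs, on either strand, are in capitals. Top2a (chr11:99024140-99024439, minus strand) and Cdk1 (chr10:69352863-69353162, minus strand) are mitosis genes. Mcm5 (chr8:75109259-75109558, plus strand) and Mcm6 (chr1:128359656-128359955, minus strand) are S phase genes. Cdk4 (chr10:127063285-127063584, plus strand), the G1 kinase that recurs in the comparisons, held none of the motifs in this window.
Top2a: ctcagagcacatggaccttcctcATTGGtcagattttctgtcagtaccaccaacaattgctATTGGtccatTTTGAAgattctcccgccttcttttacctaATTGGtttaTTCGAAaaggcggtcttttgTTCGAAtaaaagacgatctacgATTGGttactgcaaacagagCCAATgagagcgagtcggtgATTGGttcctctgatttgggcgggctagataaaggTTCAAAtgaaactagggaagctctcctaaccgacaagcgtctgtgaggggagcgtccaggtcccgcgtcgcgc
Cdk1: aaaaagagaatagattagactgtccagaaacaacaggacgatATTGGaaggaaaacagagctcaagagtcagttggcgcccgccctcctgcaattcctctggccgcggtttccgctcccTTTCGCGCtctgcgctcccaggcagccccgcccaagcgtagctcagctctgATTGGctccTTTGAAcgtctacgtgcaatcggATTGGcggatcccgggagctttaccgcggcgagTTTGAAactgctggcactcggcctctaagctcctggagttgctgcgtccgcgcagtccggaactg
Mcm5: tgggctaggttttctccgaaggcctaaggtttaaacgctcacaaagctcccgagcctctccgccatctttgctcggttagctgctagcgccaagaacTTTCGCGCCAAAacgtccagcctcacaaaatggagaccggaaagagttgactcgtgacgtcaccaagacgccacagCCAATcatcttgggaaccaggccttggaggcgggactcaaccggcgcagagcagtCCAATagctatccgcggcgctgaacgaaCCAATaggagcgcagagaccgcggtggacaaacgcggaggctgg
Mcm6: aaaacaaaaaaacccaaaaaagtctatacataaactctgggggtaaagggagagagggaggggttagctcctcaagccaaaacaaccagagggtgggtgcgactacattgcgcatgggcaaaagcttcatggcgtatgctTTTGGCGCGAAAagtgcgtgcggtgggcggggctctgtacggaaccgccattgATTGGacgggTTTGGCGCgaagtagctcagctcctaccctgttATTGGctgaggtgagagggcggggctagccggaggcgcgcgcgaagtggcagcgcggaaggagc
Cdk4: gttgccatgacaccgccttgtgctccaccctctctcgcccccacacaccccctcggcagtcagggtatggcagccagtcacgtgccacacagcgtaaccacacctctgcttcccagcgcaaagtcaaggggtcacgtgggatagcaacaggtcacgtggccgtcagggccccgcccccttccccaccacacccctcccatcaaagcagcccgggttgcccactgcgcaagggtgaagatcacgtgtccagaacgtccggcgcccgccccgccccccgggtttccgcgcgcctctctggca
The Top2a promoter held 4 CHR and 6 CCAAT matches. The Cdk1 promoter held 2 CHR, 1 E2F and 3 CCAAT matches. The Mcm5 promoter held 2 E2F and 3 CCAAT matches, and the Mcm6 promoter 3 E2F and 2 CCAAT matches, with no CHR match in either.

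One library stood apart before any comparison. Total counts ran from 20584363 to 29965355 per tumour. IgG replicate 3 had the highest levels of smooth muscle, luminal epithelium, basal epithelium, skeletal muscle and fat markers. Of 7 prostate secretion markers 4 (Sbp, Msmb, Spink1 and Pigr) were highest in it, while Mmp7 was lowest in it, 48.8-fold below the median of the others, and Tgm4 was 69.2-fold below. Its mean log2(CPM + 1) over 7 smooth muscle markers was 10.3, against 4.34 to 8.29 in the other 11 tumours, with all 7 markers highest in it. Over 7 luminal markers it was 8.21, against 3.96 to 7.04. Over 9 T and NK cell markers it was the lowest, at 1.10 against 1.78 to 3.16. No marker on these lists was at 0 in every library. The part of tissue composition in what follows was not tested. Every edgeR comparison of the tested cell cycle genes was run with and without this tumour, while DESeq2 was run only with all tumours. For some genes only the value with all tumours is given.

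Cell cycle genes were low in IgG replicate 3, and their levels lay closer together in the other 11 tumours. Among these 11, Lupron replicate 2 had the lowest S phase and mitosis levels. Levels are in CPM, read counts relative to the library total after scaling by the trimmed mean of M-values (TMM), and the level of a gene group is the mean of log2(CPM + 1) over its genes. The level of the 13 S phase genes was 6.12, 6.20 and 3.63 in IgG replicates 1, 2 and 3. It was 6.42, 6.05 and 6.28 with anti-CSF1, 6.50, 5.55 and 6.24 with Lupron and 6.26, 6.22 and 6.24 with the combination. The level of the 25 mitosis genes was 6.41, 6.28 and 2.24 in the IgG tumours, 6.67, 6.20 and 6.55 with anti-CSF1, 6.54, 5.71 and 6.49 with Lupron and 6.46, 6.49 and 6.53 with the combination. Apart from IgG replicate 3, the 4 groups overlapped in both levels except that all 3 combination tumours were above both remaining IgG tumours in both, by less than the spread within the Lupron group. The S phase level minus the mitosis level was 1.40 in IgG replicate 3 and between -0.29 and -0.04 in each of the others.

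**Figure D1:**
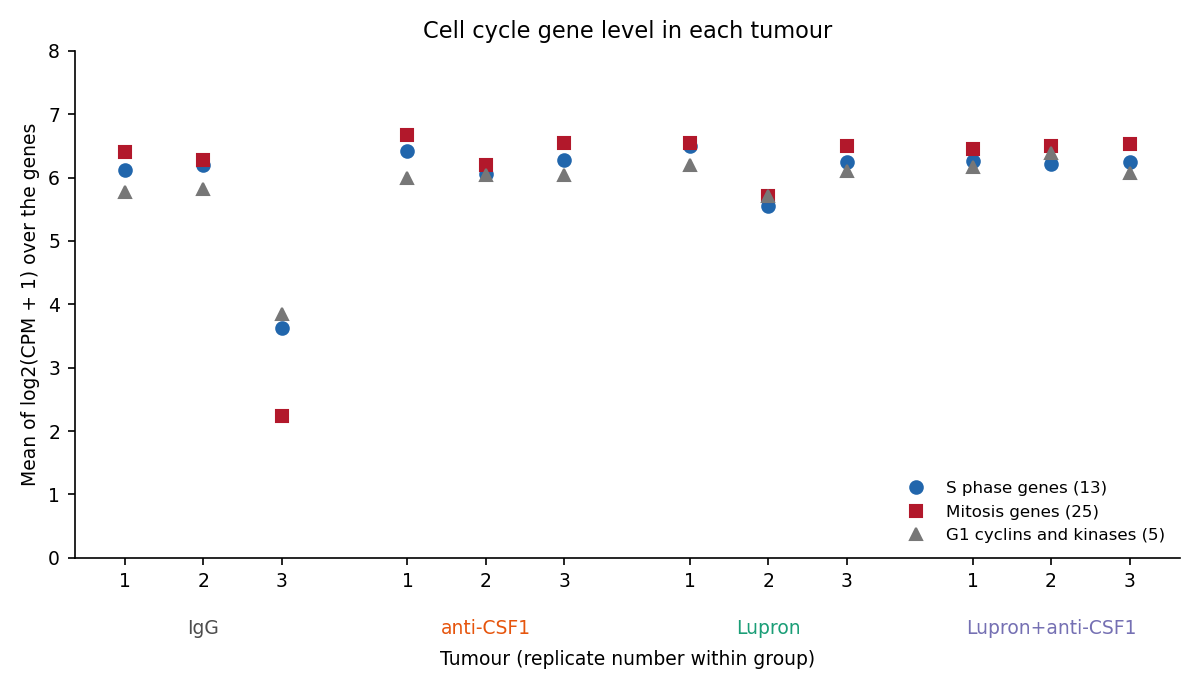
Mean log2(CPM + 1) of the 13 S phase genes (circles), 25 mitosis genes (squares) and 5 G1 cyclins and kinases (triangles) in each tumour, by group and replicate number. IgG replicate 3 lies lowest in all 3 and has its mitosis level, 2.24, below its S phase level, 3.63; Lupron replicate 2 is the next lowest in S phase and mitosis.

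IgG replicate 3 had the lowest value of the 12 tumours for 45 of the 47 tested cell cycle genes. Across all tested genes it lay below all 11 others in 29.4% of them. The exceptions were Ccnd1, lowest in Lupron replicate 2, and Cdkn1a, lowest in combination replicate 3. The tested cell cycle genes were a median of 16.3-fold below the median of the other 11 tumours, against 1.01-fold for all tested genes. This is 1 tumour against the rest, so the difference carries no test, and the intervals below cover counting error only.

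By median, the size of the difference went with the phase of the cycle, while the ranges of the phases overlapped. The mitosis genes were a median of 29.2-fold below the other tumours, ranging from 5.60-fold to 48.9-fold. The S phase genes were a median of 6.70-fold below, ranging from 3.41-fold to 17.9-fold. The 5 G1 cyclins and kinases were a median of 4.29-fold below, ranging from 1.72-fold for Ccnd1 to 14.9-fold for Ccne1. Ccne1 and Ccne2 (13.2-fold) were further below than the S phase median. The lowest of the tested genes were Cenpa, the centromeric histone, at 2.04% of the median of the other 11 (95% exact Poisson interval 1.30 to 3.07), the spindle kinase Aurka at 2.09% (1.44 to 2.94) and the mitotic kinesin Kif20a at 2.22% (1.80 to 2.70). The highest were Cdkn1a, the CDK inhibitor p21, at 84.6% (77.2 to 92.5), the cyclin D1 gene Ccnd1 at 58.1% (56.5 to 59.6) and the helicase subunit Mcm4 at 29.4% (27.3 to 31.5). Among S phase genes Rrm2, a ribonucleotide reductase subunit, and Mcm5 came nearest to the mitosis genes, at 5.59% and 6.35%. Among mitosis genes Cdc25b, a CDK-activating phosphatase, came nearest to the S phase genes, at 17.9%.

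Other genes of the pathway, on lists that hold none of the 48, showed the same order of phases by median in the same tumour. These lists were chosen with earlier results of these data known, and the tumour was the same, so the order is no independent check. In IgG replicate 3 all 30 further S phase genes were below every other tumour, with a median of 7.57-fold. So were 39 of 40 further mitosis genes, with a median of 20.8-fold. Of 22 genes of G1 control and the p53 pathway, 10 were below every other tumour, with a median of 1.64-fold.

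**Figure D2:**
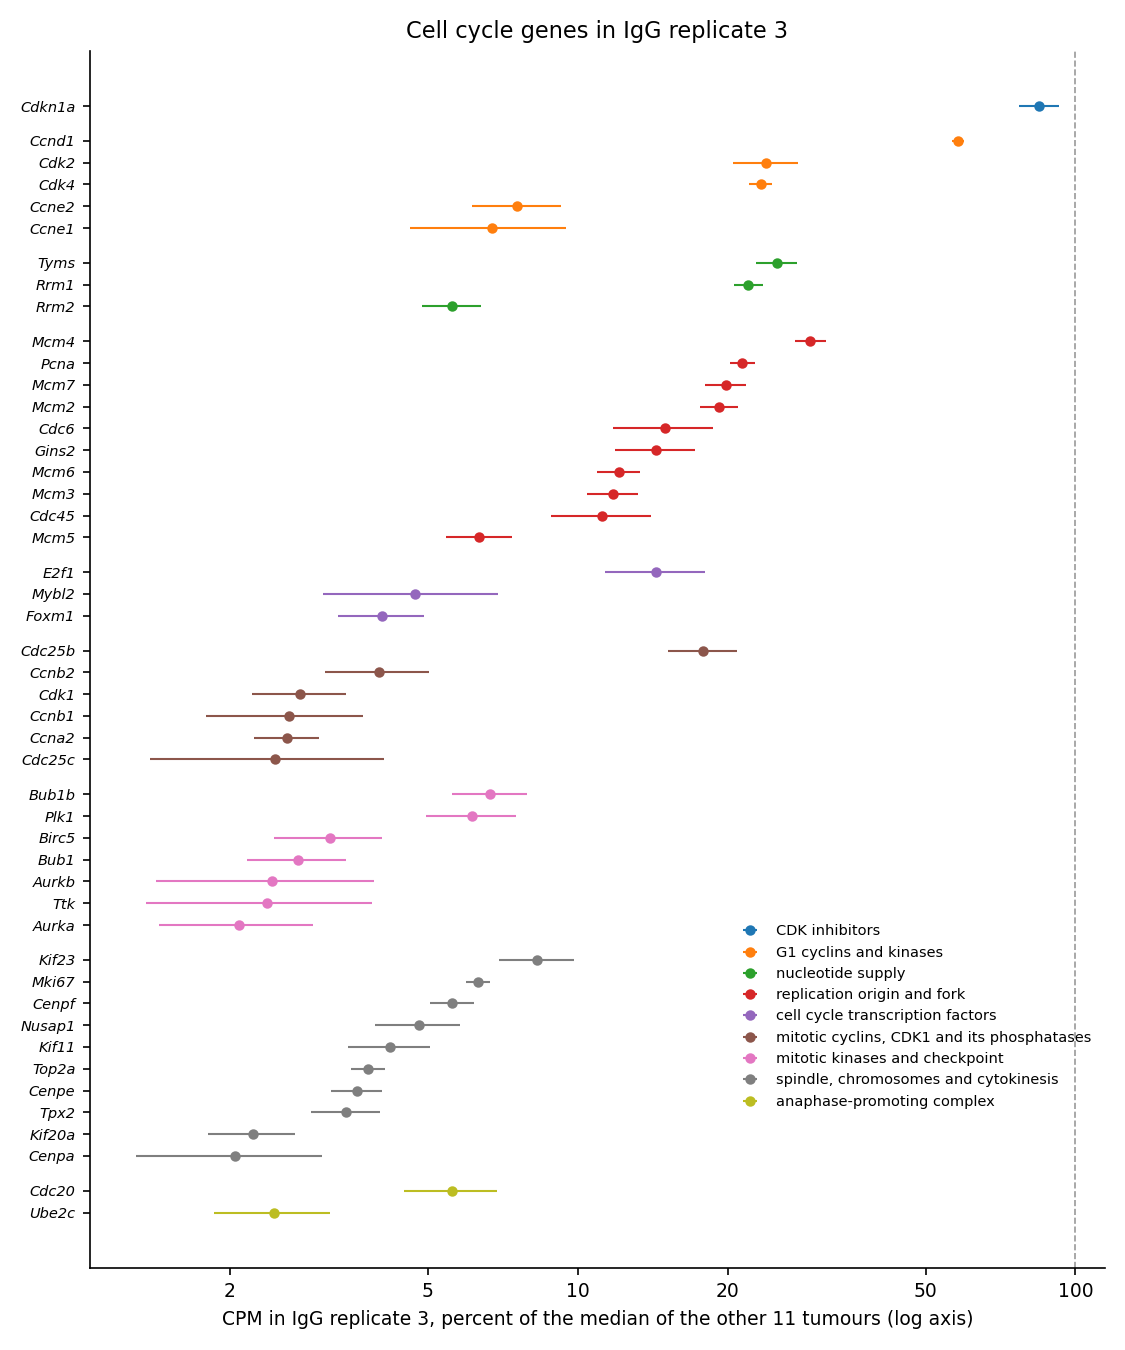
CPM of each of the 47 tested genes in IgG replicate 3 as a percent of the median of the other 11 tumours, on a log axis, coloured by role; bars are 95% exact Poisson intervals of the count in IgG replicate 3. Mitosis genes reach down to 2.04% (Cenpa), S phase genes lie between 5.59% (Rrm2) and 29.4% (Mcm4), and Cdkn1a stands at 84.6%.

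With that tumour in view, the genes are taken by role, beginning with G1. Ccnd1, cyclin D1, was at 387, 382 and 192 CPM in IgG replicates 1 to 3. It was at 414, 250 and 386 CPM with anti-CSF1, 433, 159 and 298 CPM with Lupron and 331, 277 and 283 CPM with the combination. The groups overlapped with all tumours, while without IgG replicate 3 the combination lay wholly below IgG. Cdk4, the kinase of cyclin D, was at 146, 116 and 46.1 CPM in the IgG tumours, 191, 227 and 172 CPM with anti-CSF1, 230, 180 and 198 CPM with Lupron and 198, 294 and 207 CPM with the combination. All 9 treated tumours lay above all 3 IgG tumours, as they also did for the mitotic checkpoint kinase Bub1 and for Tyms, thymidylate synthase. These 3 of 47 genes stand beside 3.69% of all tested genes, and beside 4.38% without IgG replicate 3.

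Cyclin E genes and their kinase were less uniform. Ccne1 was at 13.2, 13.0 and 1.14 CPM in the IgG tumours, 12.6, 13.7 and 17.0 CPM with anti-CSF1, 17.1, 11.9 and 17.6 CPM with Lupron and 20.6, 20.6 and 20.0 CPM with the combination. The 3 combination tumours had the highest values of all 12. Ccne1, Birc5 and Ccnb2 were the 3 of 47 genes with the combination wholly above anti-CSF1, beside 4.75% of all tested genes. Only Ccne1, 1 of 47, had the combination wholly above Lupron, beside 5.86%. Ccne2 was at 27.6, 44.7 and 3.38 CPM in the IgG tumours, 31.5, 54.9 and 31.9 CPM with anti-CSF1, 38.6, 53.2 and 50.6 CPM with Lupron and 46.5, 67.3 and 38.0 CPM with the combination, and its groups overlapped apart from IgG replicate 3. Cdk2, the partner of cyclin E, was at 19.8, 18.7 and 6.30 CPM with IgG, 29.1, 24.5 and 29.9 CPM with anti-CSF1, 27.8, 18.4 and 26.0 CPM with Lupron and 26.4, 32.5 and 27.2 CPM with the combination. Both antibody-treated groups lay wholly above IgG for Cdk2, and the Lupron group did not.

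The CDK inhibitors differed from the rest. Cdkn1a was at 23.8, 20.1 and 17.0 CPM in the IgG tumours, 24.4, 47.6 and 36.5 CPM with anti-CSF1, 9.30, 13.7 and 13.2 CPM with Lupron and 12.5, 25.5 and 5.85 CPM with the combination. The 3 Lupron tumours were below all IgG tumours and the 3 anti-CSF1 tumours above them, while the combination overlapped with each of the other groups. Cdkn2a, which encodes p16 and p19ARF, had 5, 8 and 8 counts in the IgG tumours, 9, 0 and 0 with anti-CSF1, 5, 0 and 5 with Lupron and 0, 1 and 13 with the combination. It did not pass the filter on low counts. In the tumours with 0 counts the limit of 3 counts was 0.142 and 0.107 CPM for anti-CSF1 replicates 2 and 3, 0.172 CPM for Lupron replicate 2 and 0.117 CPM for combination replicate 1, so at this depth no order among the groups was detectable.

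**Figure D3:**
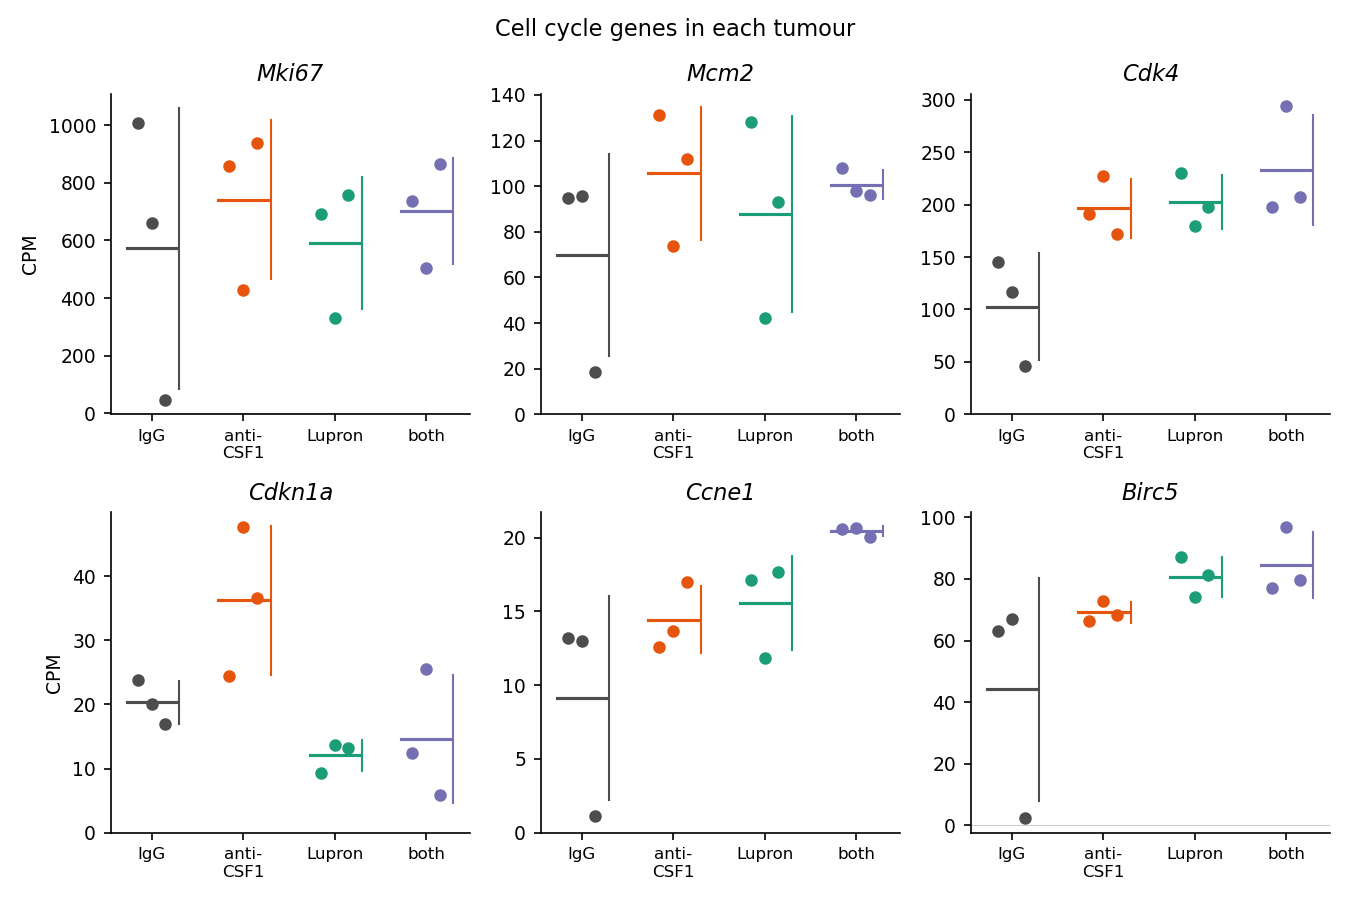
CPM of 6 genes in each tumour (points), with the mean (line) and SD (vertical bar) of the 3 tumours of each group; "both" is the combination. IgG replicate 3 is lowest for Mki67, Mcm2, Cdk4, Ccne1 and Birc5, the 9 treated tumours lie above all IgG tumours for Cdk4, and for Cdkn1a the Lupron tumours (9.30 to 13.7 CPM) lie below the IgG tumours (17.0 to 23.8 CPM).

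The transcription factors of the cycle spanned 3 genes. E2f1, which drives S phase genes, was at 18.3, 19.4 and 2.71 CPM with IgG, 22.1, 22.8 and 27.6 CPM with anti-CSF1, 16.8, 15.6 and 18.6 CPM with Lupron and 18.8, 19.5 and 16.3 CPM with the combination. The anti-CSF1 tumours had the 3 highest values. E2f1 and Aurkb were the 2 of 47 genes with the combination wholly below anti-CSF1, beside 5.22% of all tested genes. Foxm1, a factor of G2 and mitosis genes, was at 111, 67.2 and 3.60 CPM with IgG, 104, 55.7 and 95.3 CPM with anti-CSF1, 107, 40.5 and 96.0 CPM with Lupron and 86.6, 57.9 and 89.0 CPM with the combination. Its groups overlapped, and each treated group had its lowest value in replicate 2. Mybl2 ranged from 6.20 to 24.7 CPM outside IgG replicate 3, where it was at 0.926 CPM.

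Among replication genes, the MCM helicase subunits were low in IgG replicate 3 and next lowest in Lupron replicate 2. Mcm2 was at 95.0, 95.5 and 18.5 CPM with IgG, 131, 73.8 and 112 CPM with anti-CSF1, 128, 42.3 and 92.9 CPM with Lupron and 108, 98.1 and 95.9 CPM with the combination. Mcm5 was at 90.7, 95.7 and 6.02 CPM with IgG, 114, 88.7 and 102 CPM with anti-CSF1, 107, 47.6 and 94.8 CPM with Lupron and 97.2, 85.2 and 90.5 CPM with the combination. In both genes Lupron replicate 2 was below the other 10 tumours. Pcna, the sliding clamp of DNA polymerase, was at 148, 205 and 40.8 CPM with IgG, 186, 220 and 156 CPM with anti-CSF1, 194, 185 and 190 CPM with Lupron and 191, 257 and 166 CPM with the combination. For Pcna, Lupron replicate 2 was level with its group. Rrm2 was at 114, 96.2 and 7.69 CPM with IgG, 152, 111 and 148 CPM with anti-CSF1, 174, 70.0 and 138 CPM with Lupron and 132, 164 and 151 CPM with the combination, all 3 combination tumours being above IgG.

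Gins2, a subunit of the GINS helicase cofactor, was at 19.0, 24.3 and 4.20 CPM with IgG, 28.3, 38.7 and 20.8 CPM with anti-CSF1, 31.1, 34.5 and 32.5 CPM with Lupron and 29.2, 44.0 and 28.2 CPM with the combination. Both groups given Lupron lay above IgG. Tyms was at 52.1, 56.3 and 15.3 CPM with IgG, 59.2, 75.9 and 58.1 CPM with anti-CSF1, 81.3, 69.6 and 65.9 CPM with Lupron and 60.1, 91.0 and 60.9 CPM with the combination. The other S phase genes (Mcm3, Mcm4, Mcm6 and Mcm7 of the helicase, the origin factors Cdc6 and Cdc45, and Rrm1) spanned 1.74-fold to 3.33-fold from the lowest to the highest of the 11 tumours other than IgG replicate 3.

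Mitosis genes showed the same tumours at the extremes. Mki67, the proliferation marker Ki-67, was at 1010, 661 and 46.6 CPM with IgG, 858, 428 and 940 CPM with anti-CSF1, 690, 329 and 757 CPM with Lupron and 738, 503 and 867 CPM with the combination. Top2a, the topoisomerase that untangles chromosomes, was at 586, 506 and 22.0 CPM with IgG, 781, 420 and 686 CPM with anti-CSF1, 653, 256 and 581 CPM with Lupron and 558, 506 and 592 CPM with the combination. For both genes IgG replicates 1 and 2 lay within the range of the treated tumours or above it, and replicate 2 was the lowest of each treated group. Cdk1, the mitotic kinase, was at 75.1, 102 and 3.03 CPM with IgG, 109, 125 and 98.4 CPM with anti-CSF1, 119, 87.2 and 109 CPM with Lupron and 112, 160 and 107 CPM with the combination. Its partner cyclin gene Ccnb1 was at 41.9, 43.4 and 1.14 CPM with IgG, 49.9, 42.9 and 41.6 CPM with anti-CSF1, 48.8, 30.8 and 47.7 CPM with Lupron and 44.8, 52.9 and 38.0 CPM with the combination. The groups overlapped for Ccnb1, and for Cdk1 only the combination was wholly above IgG.

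Plk1, a kinase of mitotic entry, was at 53.9, 48.2 and 3.31 CPM with IgG, 59.0, 29.1 and 64.1 CPM with anti-CSF1, 62.6, 18.8 and 51.9 CPM with Lupron and 59.6, 31.1 and 58.6 CPM with the combination. Aurkb, the kinase of the chromosomal passenger complex, was at 24.1, 18.4 and 0.605 CPM with IgG, 35.1, 26.3 and 27.7 CPM with anti-CSF1, 33.6, 15.1 and 30.0 CPM with Lupron and 24.8, 24.9 and 23.8 CPM with the combination. The anti-CSF1 tumours were all above IgG and above the combination for Aurkb. Of all tested genes 11.1% had anti-CSF1 wholly above IgG, and 5.22% had the combination wholly below anti-CSF1. Birc5, survivin, a partner of Aurkb in that complex, was at 63.2, 67.0 and 2.35 CPM with IgG, 66.3, 72.8 and 68.4 CPM with anti-CSF1, 87.0, 74.0 and 81.3 CPM with Lupron and 77.1, 97.0 and 79.5 CPM with the combination. It was the only one of the 47 whose 6 tumours given Lupron all lay above the other 6, which 0.152% of all tested genes did (0.217% without IgG replicate 3). None had its 6 antibody-treated tumours above the other 6, against 0.703% of all tested genes (0.803% without IgG replicate 3). Ccnb2, cyclin B2, was at 55.5, 33.2 and 2.53 CPM with IgG, 63.5, 58.2 and 63.4 CPM with anti-CSF1, 69.8, 54.0 and 65.9 CPM with Lupron and 67.7, 82.6 and 67.4 CPM with the combination. Cenpf, a kinetochore gene, was at 263, 253 and 14.2 CPM with IgG, 280, 146 and 293 CPM with anti-CSF1, 216, 109 and 228 CPM with Lupron and 256, 217 and 310 CPM with the combination. Bub1 was at 75.6, 84.8 and 2.78 CPM with IgG, 111, 93.3 and 101 CPM with anti-CSF1, 106, 88.2 and 106 CPM with Lupron and 101, 159 and 102 CPM with the combination. For Ccnb2 both antibody-treated groups lay above IgG, for Cenpf all 3 Lupron tumours lay below IgG replicates 1 and 2 and above IgG replicate 3, and for Bub1 all treated tumours were above IgG. The remaining mitosis genes were the cyclin gene Ccna2, Cdc25b and Cdc25c, the kinases Aurka, Bub1b and Ttk, the kinesins Kif11, Kif20a and Kif23, the spindle genes Tpx2 and Nusap1, the centromere genes Cenpa and Cenpe, and Cdc20 and Ube2c of the anaphase-promoting complex pathway. Over all mitosis genes the span across the 11 tumours had a median of 2.32-fold and reached 3.40-fold for Plk1.

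None of the 47 genes changed in any of the 8 comparisons at an adjusted p under 0.05 (edgeR quasi-likelihood test, Benjamini-Hochberg over all tested genes), with all 12 tumours or without IgG replicate 3. Of all tested genes the edgeR test called 0.00663% in anti-CSF1 and in the combination against IgG, 1.87% for the averaged antibody effect and 0% in the other 5. Without IgG replicate 3 it called 1.11% in anti-CSF1 against IgG, 1.37% in the combination against IgG, 1.38% in the combination against Lupron, 3.13% for the averaged antibody effect and 0% in the other 4. Separate tumours are labelled as replicates, and p-values measure the spread between them.

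Counts at an unadjusted p under 0.05 by edgeR are given with the share of all tested genes that reached it. With all 12 tumours they were 2 of 47 for anti-CSF1 against IgG, beside 22.8% of all tested genes, 1 for Lupron against IgG, beside 16.4%, and 3 for the combination against IgG, beside 26.0%. They were 0 for the combination against Lupron, beside 4.26%, and 1 for the combination against anti-CSF1, beside 1.95%. For the averaged effects they were 2 for the antibody, beside 19.0%, and 2 for Lupron, beside 9.06%, and for the interaction 0, beside 6.77%. They were 2, 2 and 8 without IgG replicate 3 against IgG for anti-CSF1, Lupron and the combination, beside 13.4%, 5.27% and 14.8%. In the same order as above the other 5 were then 0, 3, 3, 6 and 0, beside 6.17%, 3.77%, 15.4%, 6.78% and 3.46%. DESeq2, with all tumours, called 1 of the 47, Cdk4, in the combination against IgG, where it called 13.1% of all its tested genes. It called 0 of the 47 in anti-CSF1 against IgG, beside 11.9% of all genes, in Lupron against IgG, beside 2.78%, in the combination against Lupron, beside 1.46%, and in the combination against anti-CSF1, beside 0.0314%. It also called 0 for the averaged antibody effect, beside 9.33%, the averaged Lupron effect, beside 0.0576%, and the interaction, beside 1.35%.

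The first comparison, anti-CSF1 against IgG, concerns the antibody on its own. Macrophage markers moved with the antibody: their level over 10 genes was 3.85 to 4.68 in the 6 antibody-treated tumours and 5.02 to 6.70 in the other 6, and the part of macrophages in the values below was not tested. The median log2 difference from IgG of the 47 genes was 0.65 with all 12 tumours and 0.13 without IgG replicate 3, against 0.01 and 0.03 over all tested genes. With all tumours 47 of 47 were positive, and without that tumour 35 of 47. The S phase median went from 0.51 to 0.08 and the mitosis median from 0.69 to 0.14. The smallest p belonged to Cdk4, at a log2 difference of 0.94 ± 0.35 (SE, adjusted p = 0.158 by edgeR), followed by Cdk2, at 0.90 ± 0.36 (adjusted p = 0.176), and Cdkn1a, at 0.83 ± 0.44 (adjusted p = 0.278). Without IgG replicate 3 the log2 difference was 0.59 ± 0.24 for Cdk4 (adjusted p = 0.305 by edgeR) and 0.53 ± 0.21 for Cdk2 (adjusted p = 0.301). For Mki67 the log2 difference was 0.37 with all tumours, with a 95% interval from -1.32 to 2.07, and -0.17 without that tumour, with an interval from -1.11 to 0.76. In 10 of the 47 genes all 3 anti-CSF1 tumours were above all IgG tumours, beside 11.1% of all tested genes in that direction, and in 0 all below, beside 12.8%. Leaving out IgG replicate 3, these were 10, beside 13.4%, and 0, beside 15.9%.

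Lupron against IgG asks the same of androgen suppression. The median log2 difference from IgG was 0.45 with all tumours and -0.11 without IgG replicate 3, against -0.02 and -0.03 over all tested genes. The number of positive genes went from 45 to 18 of 47, the S phase median from 0.38 to -0.12 and the mitosis median from 0.51 to -0.05. Cdk4 again had the smallest p, at 0.98 ± 0.35 (adjusted p = 0.284 by edgeR), and 0.63 ± 0.24 without IgG replicate 3 (adjusted p = 0.800). Gins2 followed at 1.05 ± 0.49 and Tyms at 0.81 ± 0.39. Without IgG replicate 3 Ccnb2 came second, at 0.51 ± 0.23 (adjusted p = 0.800 by edgeR). For Mki67 the log2 difference was 0.05, with an interval from -1.64 to 1.74, and -0.50 without that tumour, from -1.43 to 0.43. In 6 of the 47 genes the Lupron tumours were all above IgG, beside 11.1% of all tested genes, and in 1, Cdkn1a, all below, beside 8.53%. These were 6 without IgG replicate 3, beside 13.2%, and 3 (Cdkn1a, Cenpe and Cenpf), beside 10.7%.

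For the combination against IgG, 15 of 47 genes had all 3 combination tumours above IgG, beside 15.1% of all tested genes, and 0 below, beside 12.7%. There were 15 above without IgG replicate 3, beside 18.0%, and 4 below, beside 17.3%: Ccnd1, the helicase genes Mcm3 and Mcm7, and Mybl2. The median log2 difference was 0.57 with all tumours and 0.07 without IgG replicate 3, against -0.03 and -0.01 over all tested genes, and 45 and 28 of 47 were positive. The S phase median went from 0.50 to -0.01 and the mitosis median from 0.63 to 0.07. Cdk4 was at 1.18 ± 0.35, a fold of 2.27 (adjusted p = 0.116 by edgeR), and at 0.83 ± 0.24, a fold of 1.78, without IgG replicate 3 (adjusted p = 0.143). DESeq2 put it past the threshold with all tumours (1.17, adjusted p = 0.0169), and so did edgeR without IgG replicate 1 (1.53, adjusted p = 0.0281), where 14.2% of all tested genes were called. In anti-CSF1 against IgG, edgeR without IgG replicate 1 also called Cdk4, at 1.28 (adjusted p = 0.0396), beside 16.8% of all tested genes. In these 3 fits the 1 of 47 called was a smaller share than that of all tested genes. Cdk2 was at 0.94 ± 0.36 (adjusted p = 0.145 by edgeR) and Gins2 at 1.10 ± 0.49 (adjusted p = 0.188). Without IgG replicate 3 Ccnb2 was at 0.71 ± 0.23 (adjusted p = 0.188 by edgeR) and Ccne1 at 0.64 ± 0.23 (adjusted p = 0.222). The 3 comparisons against IgG share their control tumours.

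**Figure D4:**
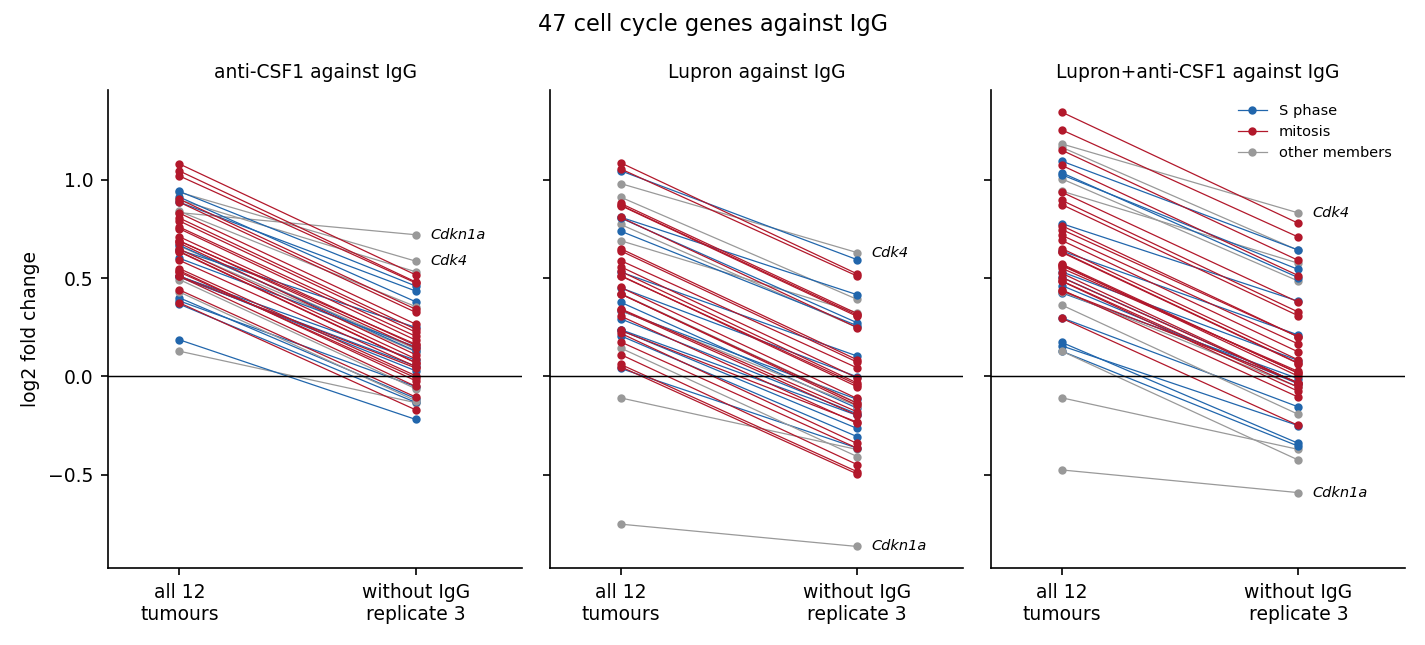
Log2 fold change against IgG of the 47 tested genes with all 12 tumours and without IgG replicate 3, 1 line per gene, S phase in blue, mitosis in red and the others in grey. The median goes from 0.65 to 0.13 for anti-CSF1, from 0.45 to -0.11 for Lupron and from 0.57 to 0.07 for the combination; Cdk4 stays positive in all 3 panels.

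A pair of comparisons does not use the level of the IgG group. Its tumours still enter their SE and p, because 1 fit covered all 4 groups. Fitted to the compared groups alone, edgeR called 204 of all tested genes (1.43%) in the combination against Lupron, against 0 in the main fit. None of the 47 was among them. For the combination against Lupron, which asks what the antibody adds, the median was 0.19 with or without IgG replicate 3, and 39 of 47 genes were positive. The smallest p with all tumours belonged to Cdk2 at 0.25 ± 0.35, Cenpf at 0.50 ± 0.74 and Ccne1 at 0.39 ± 0.61, each with an adjusted p of 1.00 by edgeR; without IgG replicate 3 they were Ccne1 at 0.39 ± 0.20, Aurka at 0.36 ± 0.23 and Cenpf at 0.50 ± 0.32. Aurka was at 54.7, 33.1 and 58.1 CPM with Lupron and 58.4, 72.2 and 57.0 CPM with the combination, and at 43.5, 56.2 and 1.18 CPM with IgG and 61.4, 46.1 and 53.7 CPM with anti-CSF1. For the combination against anti-CSF1, which asks what Lupron adds, the median was -0.01 with or without IgG replicate 3. With all tumours 22 of 47 were positive. Cdkn1a had the smallest p there, at -1.31 ± 0.45, a fold of 2.48 lower in the combination (unadjusted p = 0.0138, adjusted p = 1 by edgeR), and -1.31 ± 0.43 without IgG replicate 3. Ccne1 followed at 0.50 ± 0.61 and E2f1 at -0.41 ± 0.51. Without IgG replicate 3 the spread of both was smaller, with Ccne1 at 0.50 ± 0.20 and E2f1 at -0.41 ± 0.17 (each with an adjusted p of 1 by edgeR).

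Averaged over the other treatment, the antibody effect had a median of 0.42 with all tumours, with 47 of 47 positive, and of 0.15 without IgG replicate 3, with 40 of 47 positive. Its smallest p values belonged to Cdk4 at 0.57 ± 0.25 (adjusted p = 0.245 by edgeR), Cdk2 at 0.58 ± 0.25 (adjusted p = 0.246) and Cdkn1a at 0.55 ± 0.31. Without IgG replicate 3 they belonged to Cdk2 at 0.39 ± 0.14, Cdk4 at 0.39 ± 0.16 and Ccnb2 at 0.34 ± 0.15. The averaged Lupron effect had a median of 0.16 with all tumours, and of -0.09 without IgG replicate 3, and 40 and 19 of 47 were positive. Cdkn1a had its smallest p, at -1.03 ± 0.32, a fold of 2.04 lower with Lupron (unadjusted p = 0.00738, adjusted p = 0.525 by edgeR), and -1.09 ± 0.32 without IgG replicate 3 (adjusted p = 0.708). In each of 20 alternative fits the Cdkn1a value was negative, from -1.37 to -0.84, and adjusted p ran from 0.174 to 0.855. Cdk4 followed at 0.61 ± 0.25, and Gins2 at 0.63 ± 0.34; without IgG replicate 3 Birc5 came next after Cdk4, at 0.30 ± 0.11. The interaction of the treatments had a median of -0.54 with all tumours and 1 of 47 positive, and of 0.01 with 25 of 47 positive without IgG replicate 3. The smallest p in it belonged to Cdk4 at -0.74 ± 0.49, Cdk2 at -0.65 ± 0.50 and Tyms at -0.68 ± 0.55, and without IgG replicate 3 to Aurkb at -0.58 ± 0.40, Cenpf at 0.61 ± 0.47 and Cdk4 at -0.38 ± 0.32.

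The further pathway genes gave few calls. None of the 30 S phase, 40 mitosis and 22 G1 control and p53 genes passed the threshold in any comparison by edgeR, with or without IgG replicate 3. DESeq2, run only with all tumours, called Trp53 lower in anti-CSF1 against IgG, beside 11.9% of all its tested genes. Trp53 was also called lower for the averaged antibody effect, beside 9.33%. In the combination against IgG it called Spc25, Rfc3 and Cdkn2d higher and Trp53 and Cdkn1c lower, beside 13.1%. In each of these the called share of the 92 genes together was smaller than that of all tested genes. In the combination against IgG, 4 of the S phase, 3 of the mitosis and 4 of the G1 control and p53 genes had an unadjusted p under 0.05 with all tumours, beside 26.0% of all tested genes, and 4, 9 and 3 did without IgG replicate 3, beside 14.8%. The smallest adjusted p without IgG replicate 3 were those of the kinetochore genes Spc25, at 0.95 ± 0.24 (adjusted p = 0.0909 by edgeR), and Nuf2, at 0.86 ± 0.22 (adjusted p = 0.0926). Spc25 was at 50.5, 58.2 and 19.1 CPM with IgG, 61.6, 82.4 and 66.7 CPM with anti-CSF1, 70.8, 81.8 and 72.4 CPM with Lupron and 98.1, 137 and 79.2 CPM with the combination, and all 9 treated tumours were above IgG. In anti-CSF1 against IgG with all tumours, Trp53, which encodes p53, was at -0.89 ± 0.27 (adjusted p = 0.102 by edgeR) and the CDK4 inhibitor gene Cdkn2d at 1.10 ± 0.40 (adjusted p = 0.149). For Lupron against IgG, Cdkn1c, the CDK inhibitor p57, was at -1.01 ± 0.37 (adjusted p = 0.284 by edgeR) with all tumours.

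Among the 11 tumours other than IgG replicate 3, Lupron replicate 2 had the lowest value for 35 of the 47 genes. IgG replicate 1 was lowest for 7 and IgG replicate 2 for 3, and the highest values lay in anti-CSF1 replicate 1 for 16 genes and in combination replicate 2 for 14. Lupron replicate 2 also had the highest level of 8 seminal vesicle markers, 13.65. Next came anti-CSF1 replicate 1 at 12.68, the tumour with the highest values for 16 genes, and combination replicate 3 at 12.01. The lowest was anti-CSF1 replicate 3 at 4.11. The part of seminal vesicle RNA in these values was not tested. The labels give for each RNA a ratio of the 28S to the 18S ribosomal peak height. That ratio was 0.7 for Lupron replicate 2, 1.0 for IgG replicate 3 and combination replicate 2 and 1.1 for anti-CSF1 replicate 2, and between 1.3 and 1.7 for the other 8. The labels also give this ratio by peak area. It was 0.7 for Lupron replicate 2, 1.9 for IgG replicate 3, 1.2 for combination replicate 2 and 1.3 for anti-CSF1 replicate 2. By area the other 8 lay between 1.4 and 2.3, so IgG replicate 3 was within their range. The labelled RNA integrity numbers ran from 8.2 to 9.8. They were 9.2, 8.9, 9.4 and 9.8 in the 4 with the low height ratios, in the order above. Within 3 of the 4 the position of a gene went with its coding length, the longest protein-coding sequence of the gene in GENCODE M21. Taking each gene's log2(CPM + 0.5) minus its median over the 11 tumours, Pearson's r with log2 coding length over the 47 genes was -0.64 in Lupron replicate 2, -0.70 in anti-CSF1 replicate 2 and -0.58 in combination replicate 2. It was 0.51 in IgG replicate 1 and between -0.19 and 0.42 in the other 8. In Lupron replicate 2 the 16 shortest genes (up to 1233 bases) had a median of -0.28 and the 16 longest (over 2259 bases) a median of -1.11. In anti-CSF1 replicate 2 these medians were 0.14 and -0.49, and in combination replicate 2 they were 0.38 and -0.19. The points of each library are genes and share its depth and RNA, so these values describe the libraries. The same sign held in these 3 libraries over the 13606 tested genes with a coding length, at -0.22, -0.23 and -0.31. Mki67, Top2a, Cenpe and Cenpf, with long coding sequences, were lowest of their group in replicate 2 of each treated group, while Pcna and Tyms, with short ones, were highest in replicate 2 of anti-CSF1 and of the combination. Other genes went against their length. Ccnd1, of 885 bases, was lowest in replicate 2 of each treated group, and Bub1, of 3177 bases, was highest in combination replicate 2. The part of RNA quality in the comparisons was not tested. With all 4 libraries left out, the mitosis medians against IgG were 0.22 for anti-CSF1, 0.14 for Lupron and 0.12 for the combination. With only IgG replicate 3 of these left out, they were 0.14, -0.05 and 0.07. No gene of the 47 passed the threshold in any of the 8 comparisons by edgeR with all 4 left out.

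**Figure D5:**
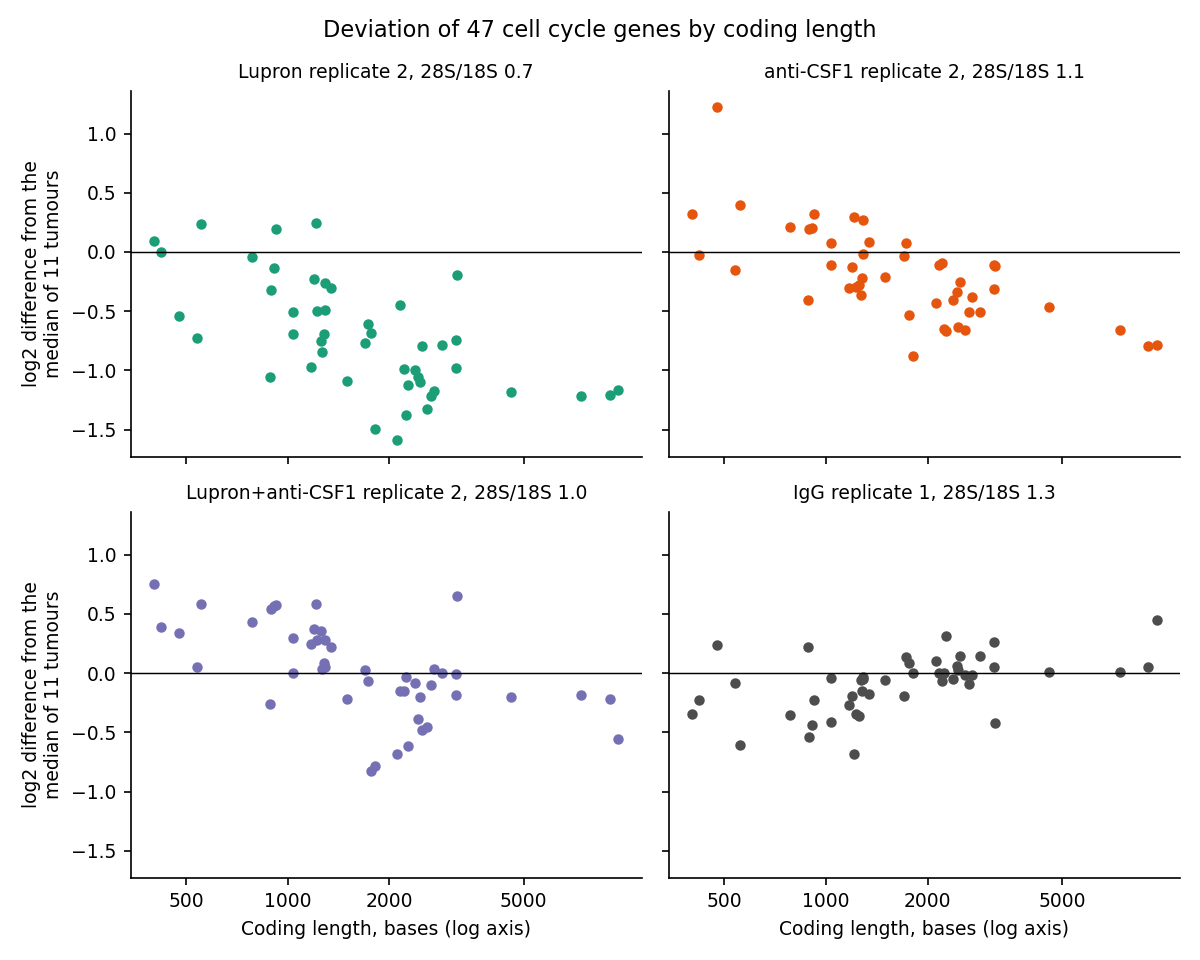
Difference of each of the 47 genes from its median over 11 tumours (log2, vertical) against its coding length (bases, log axis), in the 3 treated libraries with the lowest 28S/18S ratios and in IgG replicate 1. In the 3 treated libraries longer genes lie lower (r from -0.70 to -0.58), and in IgG replicate 1 they lie higher (r = 0.51).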

How the data were processed

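Bulk RNA was sequenced from 12 tumours. The submitters' processing notes name bcl2fastq (2.20.0.422), cutadapt (1.8.1), HTSeq (0.6.1) and the build mm10. No aligner, annotation or strand setting is named in the labels, so reads of overlapping or antisense genes cannot be separated. The deposited values are the authors' raw counts per gene symbol, with no normalization.

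Counts were scaled with TMM factors and fitted in R 4.3.3 with edgeR 4.0.16 (limma 3.58.1), 1 mean per group over all 12 libraries, after the filter on low counts (15082 genes, or 15196 without IgG replicate 3). Each comparison used the two-sided robust quasi-likelihood F test, with Benjamini-Hochberg adjustment over all tested genes and a threshold of 0.05. An exact permutation of 3 against 3 tumours cannot go below p = 0.1. The biological coefficient of variation was 0.471, and 0.376 without IgG replicate 3. DESeq2 1.42.0 was the alternative test. The fit was tested on simulated data with a smaller spread than here and no outlying tumour. Its behaviour with such a tumour was not tested. No pair of libraries agreed within sampling noise.

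The genes, the lists of further pathway genes and markers, and the alternatives were chosen with earlier results of these data known. Values for every tumour are given for 18 genes set out by name and for the 3 with the smallest p in each comparison. Of the further pathway genes those with the smallest p are named. Of 82 marker symbols, 81 were in the table, and 2 further pathway genes and 2 markers were matched by an older symbol. Promoters came from RefSeq (GRCm38.p6) and coding lengths from GENCODE M21, for 90.2% of tested genes.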

Additional observations from a re-analysis of the deposited data

How the results depend on the processing

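Alternatives were other scalings (DESeq2 size factors, upper quartile, total counts), the DESeq2 Wald test, the fit to compared groups alone, no filter on low counts or a stricter one (1 CPM in 3 libraries), the replicate block and leaving out each library. Leaving out the 4 libraries with a 28S/18S peak height ratio up to 1.1 was added after seeing the data. The fit to compared groups was not run for the averaged effects and the interaction, which need all groups. The count of the 47 genes called was 0 throughout, except 1 (Cdk4) in the combination against IgG by DESeq2. Leaving out 1 tumour gave counts from 0 to 1 in anti-CSF1 and in the combination against IgG, with 1 (Cdk4) reached without IgG replicate 1, and 0 in the other 6 comparisons. With the replicate block 0 were called in all 8 comparisons; tumours of the same number did not all deviate together (r from -0.30 to 0.51 over 18 pairs), so the numbers were not taken to pair them, although replicate 2 of the 3 treated groups did (r = 0.20, 0.43 and 0.51). Counts of calls among all genes moved with the test and with the tumours kept. Without IgG replicate 1 edgeR called 2611 in anti-CSF1, 653 in Lupron and 2213 in the combination against IgG, and 1577 for the averaged antibody effect. DESeq2 called 1869 in anti-CSF1 against IgG, 427 in Lupron against IgG, 2011 in the combination against IgG, 236 in the combination against Lupron, 6 in the combination against anti-CSF1, 1435 for the averaged antibody effect, 11 for the averaged Lupron effect and 212 for the interaction, against 1, 0, 1, 0, 0, 282, 0 and 0 by edgeR. The replicate block left 151 for the averaged antibody effect. Scaling by total counts moved the median of all genes against IgG to between -0.14 and -0.11, and that of the 47 genes to between 0.39 and 0.56. IgG replicate 3 moved the comparisons with IgG: the mitosis medians against IgG were 0.51 to 0.69 with it and -0.05 to 0.14 without it, and 0.36 to 1.12 when any 1 other tumour was left out. The 95% interval of the Mki67 difference for Lupron against IgG ran from -1.64 to 1.74 with all tumours and from -1.43 to 0.43 without IgG replicate 3.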
